A study of Mus musculus with 2 samples.

Results

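The 8 genes described here encode proteins of the intestinal mucus layer: Muc2, Clca1, Fcgbp, Zg16, Tff3, Agr2, Spink4 and Muc13. They were chosen by gene symbol alone, and all 8 were found among the 31253 features of the count matrix (31205 symbols after features with a shared symbol were merged). The counts come from single cells of mouse duodenal crypts, glands at the base of the villi in which intestinal stem cells lie. Wild-type mice formed 2 groups labelled NT and ES, letters that no label expands, and the series title names chronic stress as the subject. Crypts from 5 animals were pooled for each group, so each group is 1 library, and the ages and sexes of the animals are not given in the sources used here. Barcodes end in 1 or 2, taken as library 1 and library 2, and which of these is NT and which is ES is not stated. Every value below is therefore given per library, ratios are library 2 to library 1, no test is possible and no direction for a treatment is drawn.

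Mucus is made mainly by goblet cells, which fold its large proteins in the endoplasmic reticulum, decorate them with sugars in the Golgi and release them from granules. Muc2 is the gel-forming mucin that builds the net of intestinal mucus. Fcgbp, Clca1, Zg16 and Tff3 are secreted into that gel: Fcgbp is a large protein with von Willebrand domains like those of Muc2, Clca1 is a metalloprotease that processes mucus, Zg16 is a lectin that binds bacterial cell walls, and Tff3 is a small trefoil peptide of mucosal repair. Agr2 is a disulphide isomerase of the endoplasmic reticulum needed for Muc2 production, and Spink4 is a small secreted protein of the Kazal protease inhibitor family. Muc13 is a membrane-bound mucin of the apical surface and is known from absorptive cells as well as goblet cells.

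Of 12756 barcodes, 7784 cells were kept (4057 in library 1 and 3727 in library 2), each with 500 or more genes and no more than 25% mitochondrial UMIs. A UMI, or unique molecular identifier, stands for 1 captured RNA molecule. Median depths of the kept cells were 10854 and 11800 UMIs, from totals of 54316199 and 54877667 UMIs over all barcodes. The libraries shared 13 cell barcodes among kept cells. Cells were put into classes by their UMIs of marker genes, none of which is a member: the goblet class comprised 350 and 504 cells, 8.63% and 13.5% of those kept, with median depths of 10347 and 11223 UMIs. The 18 goblet markers set that class, so their UMIs there do not test it. In goblet cells of both libraries the gastric surface mucous markers Muc5ac, Tff1, Gkn1 and Gkn2 were at 0. Of the 4 Brunner gland markers, Muc5b and Bpifb1 were at 0 there, while Muc6 had 4 and 2 UMIs and Tff2 had 4 and 16. Paneth markers, at 7411 and 9567 CPM in the goblet class against 2913 and 4394 CPM in lymphocytes, were the most abundant markers of another class there. The goblet class has a soft edge, with 111 cells just below its threshold of 20 marker UMIs per 10000 (from 15 up) and 162 just above it (to 30).

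Genomic positions of the members, from the GENCODE M21 annotation of GRCm38, spread over 6 chromosomes. Muc2 (ENSMUSG00000025515) lies on the plus strand at chr7:141690340-141754693 and is annotated there as a fragmented locus. Fcgbp (ENSMUSG00000047730) lies on the plus strand at chr7:28071236-28120862 and Zg16 (ENSMUSG00000049350) on the minus strand at chr7:127050156-127087328. Clca1 (ENSMUSG00000028255) is at chr3:145003817-145032776 on the minus strand, Tff3 (ENSMUSG00000024029) at chr17:31125306-31129646 on the minus strand, and Agr2 (ENSMUSG00000020581) at chr12:35992907-36004087 on the plus strand. Spink4 (ENSMUSG00000028415) is at chr4:40920052-40931395 and Muc13 (ENSMUSG00000022824) at chr16:33794037-33819934, both on the plus strand. Zg16 overlaps the opposite-strand features Gm44939 and Gm22747, and Muc13 overlaps the antisense gene Gm15657. Gm44939 and Gm15657 have counts of their own in the matrix, and Gm22747 has none. The sources used here do not say how the authors' counting used strand, and whether reads of these partners entered the Zg16 or Muc13 counts was not tested.

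The RefSeq promoter table (GRCm38.p6) held 4 of the 8 members. The 250 bases before the RefSeq start are shown because they set Muc2, Fcgbp and Agr2 beside Muc13, the one member spread over the epithelium. Muc2, Fcgbp and Agr2 were far higher in goblet cells than in any other class. The RefSeq start of Agr2 lies 18 bases after the GENCODE start given above, so its window runs that far into the GENCODE gene. Muc13 has a second RefSeq start further downstream, whose window is not printed. E-boxes are bound by basic helix-loop-helix factors such as Atoh1, the factor that specifies secretory cells. The motif CAGCTG, a palindromic E-box that reads the same on both strands, is in capitals. It occurred once in the Fcgbp promoter, 208 bases before the start, and once in the Muc2 promoter, 112 bases before it. Of all 32851 promoters in the table, 13% held it. Another E-box, CAGATG, which reads as CATCTG on the other strand, occurred in the printed Muc13 promoter and in none of the other member promoters, against 14.4% of all. Muc13 thus held an E-box of another form, and the Agr2 promoter held neither form. Of the other motifs searched on both strands, TATAAA was in the Muc2 promoter alone (12.4% of all), and no member promoter held TGTTTAC (3.17% of all promoters), the motif TGTTTGC (4.30%) or the motif TTTATTG (4.20%). A match is only a run of letters, and no binding was measured here.
Fcgbp, chr7:28070986-28071235, plus strand: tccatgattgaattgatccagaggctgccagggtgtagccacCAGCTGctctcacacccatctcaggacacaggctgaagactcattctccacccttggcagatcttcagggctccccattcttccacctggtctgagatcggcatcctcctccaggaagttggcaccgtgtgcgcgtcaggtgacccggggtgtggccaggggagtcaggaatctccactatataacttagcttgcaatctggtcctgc
Muc2, chr7:141690090-141690339, plus strand: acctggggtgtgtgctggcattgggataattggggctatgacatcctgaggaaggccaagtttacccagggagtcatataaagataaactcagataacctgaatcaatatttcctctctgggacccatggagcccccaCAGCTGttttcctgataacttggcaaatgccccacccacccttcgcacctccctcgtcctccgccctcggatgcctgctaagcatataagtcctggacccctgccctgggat
Agr2, chr12:35992675-35992924, plus strand: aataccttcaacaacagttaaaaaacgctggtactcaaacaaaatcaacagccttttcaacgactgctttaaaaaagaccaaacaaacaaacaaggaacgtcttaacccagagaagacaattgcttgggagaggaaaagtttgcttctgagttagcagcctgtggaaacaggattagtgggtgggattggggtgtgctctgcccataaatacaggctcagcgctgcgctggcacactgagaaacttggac
Muc13, chr16:33793787-33794036, plus strand: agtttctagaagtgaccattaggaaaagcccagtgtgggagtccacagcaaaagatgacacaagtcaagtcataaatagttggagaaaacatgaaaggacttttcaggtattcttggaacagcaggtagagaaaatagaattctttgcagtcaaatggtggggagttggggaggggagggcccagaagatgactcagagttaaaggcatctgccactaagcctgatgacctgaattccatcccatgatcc

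Coding sequences from GENCODE M21 (GRCm38) are shown for 2 small secreted members, because their profiles part at the Paneth class described next. Cysteine codons are in capitals. Tff3 has 81 codons before the stop, 7 of them for cysteine, and Spink4 has 86 codons, 6 of them for cysteine. Disulphide bonds between cysteines hold the trefoil fold and the Kazal fold together.
Tff3: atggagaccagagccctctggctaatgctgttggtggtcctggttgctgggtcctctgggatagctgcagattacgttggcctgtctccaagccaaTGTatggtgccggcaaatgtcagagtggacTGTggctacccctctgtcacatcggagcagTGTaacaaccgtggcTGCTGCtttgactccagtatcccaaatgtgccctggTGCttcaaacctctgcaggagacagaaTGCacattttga
Spink4: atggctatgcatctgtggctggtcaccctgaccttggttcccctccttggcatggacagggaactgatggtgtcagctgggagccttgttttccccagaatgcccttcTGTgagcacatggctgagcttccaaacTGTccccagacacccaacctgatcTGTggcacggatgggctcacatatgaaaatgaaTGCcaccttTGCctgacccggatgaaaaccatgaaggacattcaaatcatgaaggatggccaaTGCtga

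Goblet cells carried the bulk of these transcripts. The 8 members together took 6.61% of all UMIs of the goblet class in library 1 (95% interval 6.59 to 6.64) and 7.74% in library 2 (7.72 to 7.76), against 0.246% and 0.283% in the stem class. With the class thresholds doubled, the goblet share was 9.16% and 9.18%. Of all member UMIs in kept cells, 62% and 70.5% lay in the goblet class, which made up 8.63% and 13.5% of the cells. Clca1 was the most confined, with 82.5% and 88.4% of its UMIs in goblet cells, and Muc13 the least, with 12.6% and 18.1%. Of the 8 members, 7 were at least 2-fold higher in the goblet class than over all other classes in both libraries, the exception being Muc13, while 670 of 12030 genes (5.57%) met the same rule. Intervals here and below are exact Poisson or Clopper-Pearson 95% intervals and cover counting error only, not differences between animals.

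Levels are UMIs per 1000000 UMIs of a class (CPM), not divided by gene length, so a gene is compared with itself across classes and not with another gene. Muc2 was at 3618 CPM in goblet cells of library 1 and 4841 CPM in library 2. Its next class was Paneth, at 434 and 782 CPM, and the other epithelial classes lay between 63.5 and 176 CPM. In lymphocytes Muc2 was at 35.9 and 107 CPM, below every epithelial class of the same library. The lowest of those were enteroendocrine cells in library 1 (63.5 CPM) and stem cells in library 2 (119 CPM). The library 2 stem level was 1.11 times that of lymphocytes, with an interval (0.904 to 1.38) that included 1.

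Among the proteins secreted into the gel, Fcgbp reached 15022 CPM in goblet cells of library 1 and 19138 CPM in library 2. Outside the goblet class Fcgbp lay between 265 and 780 CPM in the epithelium, highest in the cells of no class in library 1 (471 CPM) and in Paneth cells in library 2 (780 CPM). Clca1 was at 4333 and 6396 CPM in goblet cells and at most at 162 CPM in any other class. Zg16 was at 13482 and 12874 CPM in goblet cells, and its next level was 563 CPM, in the library 1 cells of no class. Tff3 was at 14092 and 16303 CPM in goblet cells, then at 1162 and 1544 CPM in Paneth cells and 729 and 1019 CPM in enteroendocrine cells, the hormone-secreting cells. For Muc2, Clca1, Fcgbp, Zg16 and Tff3 the goblet class was thus first in both libraries, with no overlap of counting intervals with any other class.

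Agr2, the isomerase, was at 8115 and 9192 CPM in goblet cells, at 434 and 489 CPM in Paneth cells and at 61.3 to 286 CPM in the remaining epithelial classes. Spink4 was the member most shared with Paneth cells, which secrete antimicrobial defensins at the crypt base. It was at 5570 and 6305 CPM in goblet cells and 3943 and 5182 CPM in Paneth cells, and 99.0 to 268 CPM in the other epithelial classes. Paneth cells held 23.7% and 18.7% of all Spink4 UMIs. Thinned to 2000 UMIs per cell, 97.1% and 99.3% of Paneth cells had a Spink4 UMI, against 20.5% and 26.6% of lymphocytes. Paneth markers alone took 432625 and 464091 CPM of the Paneth class, which lowers the CPM of every other gene in it.

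Muc13 was spread over the epithelium. Its goblet level of 1878 and 2342 CPM was followed by the enterocyte class, the absorptive cells, at 1595 and 2018 CPM, and the cells of no class at 1169 and 1444 CPM. The next places differed between the libraries: in library 1 tuft cells (1066 CPM) came before cycling (1049 CPM) and stem cells (987 CPM), and in library 2 cycling (1366 CPM) and stem cells (1179 CPM) came before tuft cells (1033 CPM). The tuft interval of library 1 held both the cycling and the stem level. Paneth cells, at 930 and 999 CPM, and enteroendocrine cells, at 927 and 933 CPM, were last and did not differ beyond their intervals. The Paneth level is lowered by the share that Paneth markers take of that class, given above, so its place in this order is not firm. Within each library the goblet and enterocyte levels did not overlap in their counting intervals, but the library 1 goblet level lay below the library 2 enterocyte level, so the order of these neighbours is no firmer than the gap between libraries. In lymphocytes Muc13 was at 200.0 and 236 CPM. Thinned to 2000 UMIs, a Muc13 UMI was found in 93.1% and 97.1% of enterocytes, 82.9% and 88.8% of stem cells, and 19.5% and 28.1% of lymphocytes.

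**Figure D1:**
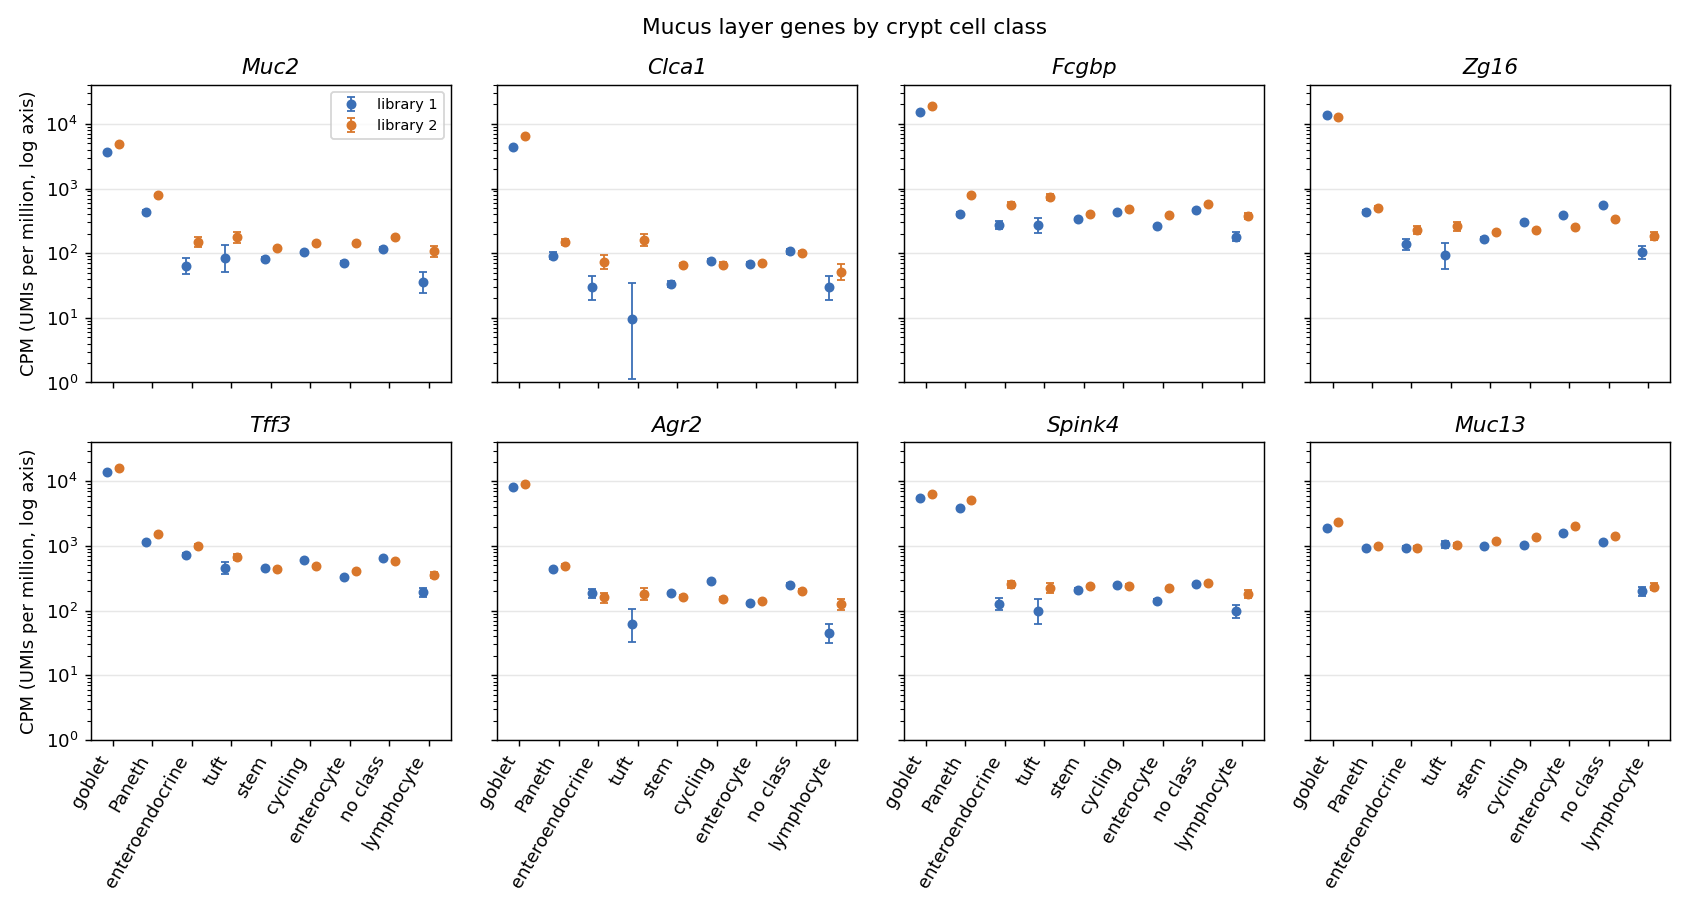
Level of each member (CPM, log axis) in 9 cell classes, library 1 in blue and library 2 in orange, with exact Poisson 95% intervals. Muc2, Clca1, Fcgbp, Zg16, Tff3 and Agr2 peak in the goblet class, Spink4 is also high in the Paneth class, and Muc13 is lower in lymphocytes (200.0 and 236 CPM) than in any epithelial class.

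Goblet genes gave UMIs in every class, lymphocytes included, which do not make mucus. The 277 and 231 lymphocytes had 691 and 1491 member UMIs, 886 and 1614 CPM, at median depths of 2433 and 3232 UMIs. Of these UMIs, Fcgbp was 20.4% and 22.9% in lymphocytes against 22.7% and 24.7% in goblet cells, and Tff3 was 21.9% and 22.1% against 21.3% and 21.1%. Zg16 took less in lymphocytes, 11.7% and 11.5% against 20.4% and 16.6%, and so did Agr2, 5.07% and 7.78% against 12.3% and 11.9%. Muc13 took more, at 22.6% and 14.6% in lymphocytes against 2.84% and 3.03% in goblet cells. In the lymphocyte class the 3 cells with most Muc13 held 50.0% and 41.7% of its UMIs. Among the 153 and 119 lymphocytes with no UMI of the epithelial gene Epcam, Muc13 was at 81.2 and 150 CPM, while Fcgbp was at 162 and 269 CPM and Tff3 at 157 and 313 CPM.

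To set member levels against free RNA, member UMIs were counted per UMI of the Paneth markers, which also reach cells that do not make them, and this ratio was divided by its value in lymphocytes of the same library. A value near 1 means that a class holds no more of the gene than lymphocytes do, relative to Paneth RNA. Stem cells were at 1.49 and 1.05 for Fcgbp, 1.77 and 1.08 for Muc2 and 1.28 and 1.12 for Zg16, and enterocytes at 1.36 and 1.02 for Fcgbp and 1.62 and 1.09 for Tff3. For these the counting interval included 1 in library 2 and lay above 1 in library 1. Other members lay above 1 with their intervals in library 2 as well: Spink4 (1.29, interval 1.10 to 1.52), Agr2 (1.27) and Tff3 (1.21) in stem cells, and Zg16 (1.33), Muc2 (1.27) and Spink4 (1.20) in enterocytes. Muc13 was at 3.90 and 4.85 in stem cells and 7.40 and 8.18 in enterocytes, and thus above it in both libraries. Tff3 in enteroendocrine cells was at 3.0 and 2.67, the highest value of Tff3 outside goblet cells in each library. In goblet cells the 7 other members ranged from 22.5 to 71.1 in library 1 and from 15.9 to 56.5 in library 2, and Muc13 was at 3.69 and 4.56. Paneth markers were higher in goblet cells (7411 and 9567 CPM) than in lymphocytes (2913 and 4394 CPM), which lowers the goblet values. The goblet values, that of Muc13 included, are therefore not ranked against other classes. The measure has no meaning in Paneth cells themselves.

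Agr2 was at 3.27 in stem cells, 5.44 in cycling cells and 2.69 in enterocytes of library 1, against 1.27, 1.16 and 1.08 in library 2. Much of a member's library 1 total in such classes sat in few cells. The 1% of library 1 enterocytes richest in Zg16, 8 cells, held 61.3% of the Zg16 UMIs of the class, while the 9 richest of library 2 held 14.1%. For Agr2 in the cycling class the richest 9 and 6 cells held 46.3% and 18.1%. Muc13 showed no such skew, with 3.8% to 5.0% held by the richest 1% of stem, cycling and enterocyte cells in both libraries. No doublet caller was used, and what sets these cells apart was not tested.

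**Figure D2:**
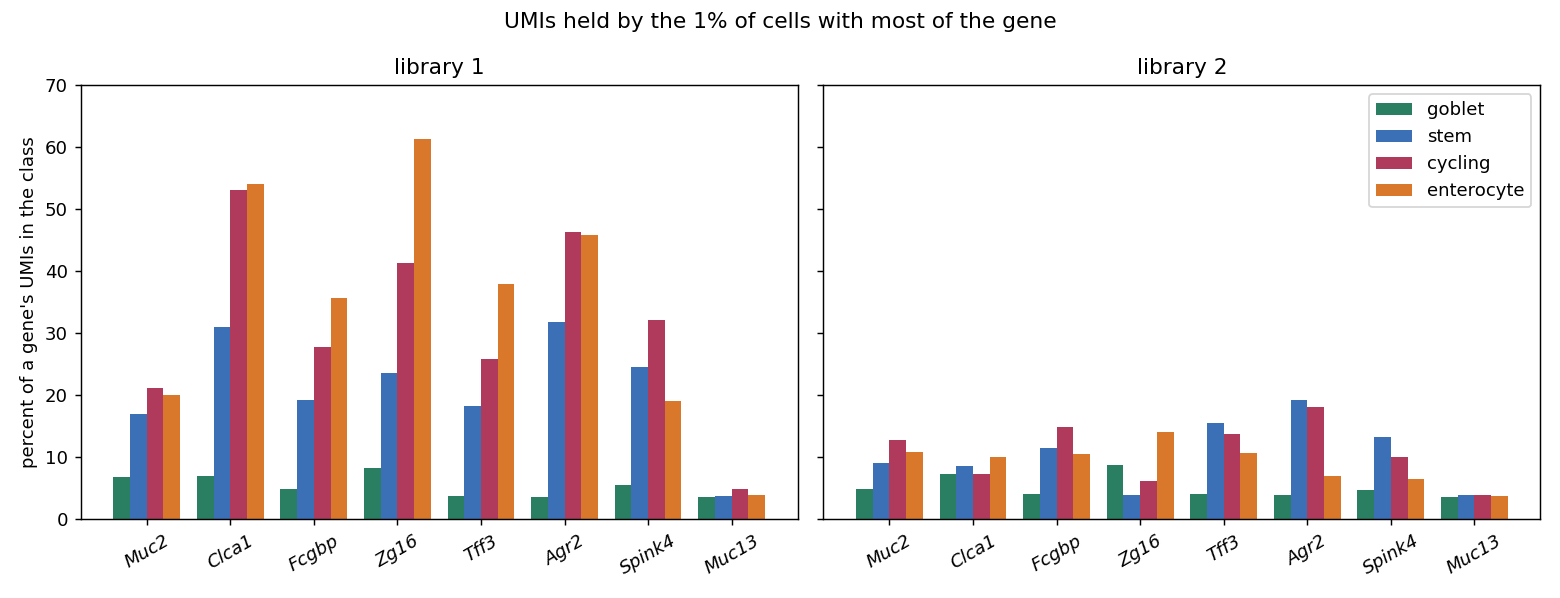
Percent of a member's UMIs in a class that lie in the 1% of its cells with most UMIs of that member (bars, linear axis from 0), for 4 classes and each library. In library 1 the enterocyte bar reaches 61.3% for Zg16, against 14.1% in library 2, while the Muc13 bars stay at or below 5.0%.

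Along the goblet marker score, the members did not rise in step. Cells outside the lymphocyte, Paneth, enteroendocrine, tuft and enterocyte classes were binned by goblet marker UMIs per 10000, and each member's CPM was set against that of the top bin, of 80 or more. Just below the class threshold, at 10 to 20, the 127 cells of library 1 were at 22.6% of the top level for Agr2, 20.02% for Tff3 and 17.8% for Spink4, but at 8.57% for Muc2, 9.02% for Clca1, 11.5% for Zg16 and 11.9% for Fcgbp. In the 63 such cells of library 2 the values were 13.3% for Agr2, 18.5% for Tff3, 16.5% for Spink4, 11.4% for Muc2, 3.87% for Clca1, 6.45% for Zg16 and 13.7% for Fcgbp. In this bin Tff3 and Spink4 were thus ahead of Muc2, Clca1, Zg16 and Fcgbp in both libraries, and Agr2 only in library 1, where it exceeded them all. The order was not the same further up. At 20 to 40 Agr2 was the highest of these 7 in both libraries (39.4% and 43.4%), and so it was at 40 to 60 (74.6% and 64.6%). At 40 to 60 Spink4, at 46.0%, was below Muc2, Clca1, Fcgbp and Zg16 in library 1 and, at 55.4%, below Fcgbp (58.5%) in library 2. Atoh1, the factor upstream of the secretory lineage, was at 18.6% and 30.5% in the bin from 10 to 20, and Muc13 at 44.8% and 58.0%. A score from marker UMIs orders cells by level and is not a time course.

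**Figure D3:**
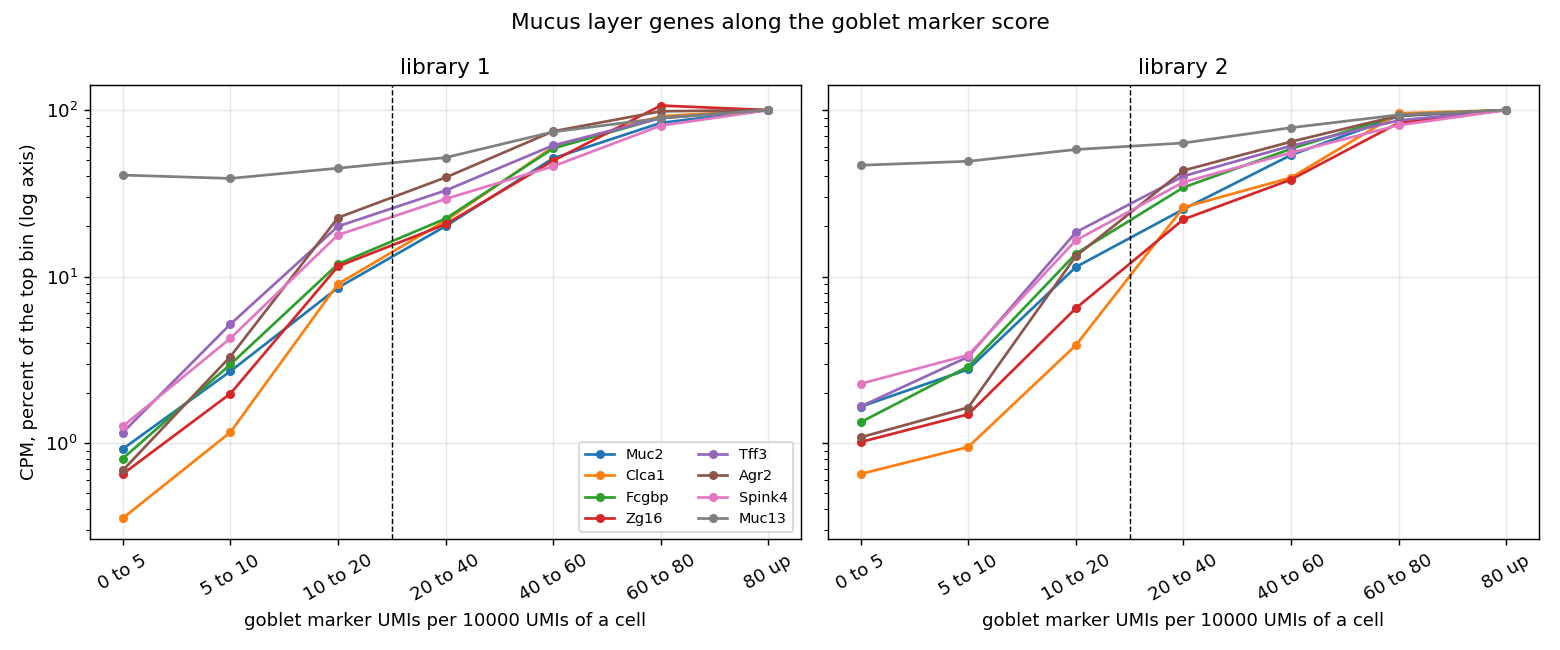
Member CPM as a percent of the top bin (log axis) against the goblet marker score in 7 bins, with 1 panel per library and the class threshold of 20 as a dashed line. Muc13 starts above 40% of its top level, whereas Clca1 is at 0.354% and 0.652% in the lowest bin.

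Goblet-class cells that also met the cycling rule had less of every member. They were 92 of 350 cells in library 1 (26.3%, interval 21.7 to 31.2) and 97 of 504 in library 2 (19.2%, 15.9 to 23.0), with median depths of 13570 and 14606 UMIs against 9770 and 10953 in the other goblet cells. Zg16 was at 2464 and 2034 CPM in cycling goblet cells against 19227 and 16310 CPM in the others, a ratio of 0.128 and 0.125, the lowest of the 8. Clca1 followed at 0.253 and 0.194, then Muc2 at 0.280 and 0.322 and Fcgbp at 0.362 and 0.461. The ratios were 0.422 and 0.516 for Tff3, 0.495 and 0.526 for Spink4, 0.558 and 0.656 for Agr2 and 0.723 and 0.764 for Muc13. This order of Zg16, Clca1, Muc2, Fcgbp, Tff3, Spink4, Agr2 and Muc13 was the same in both libraries. Atoh1, at 183 and 211 CPM against 202 and 223 CPM, had ratios of 0.904 and 0.945, with intervals that included 1. Cycling markers fell along the goblet marker score, from 2704 and 2677 CPM at 20 to 40 to 527 and 538 CPM at 80 or more, where all members were higher. The cycling split and the score were not separated here.

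**Figure D4:**
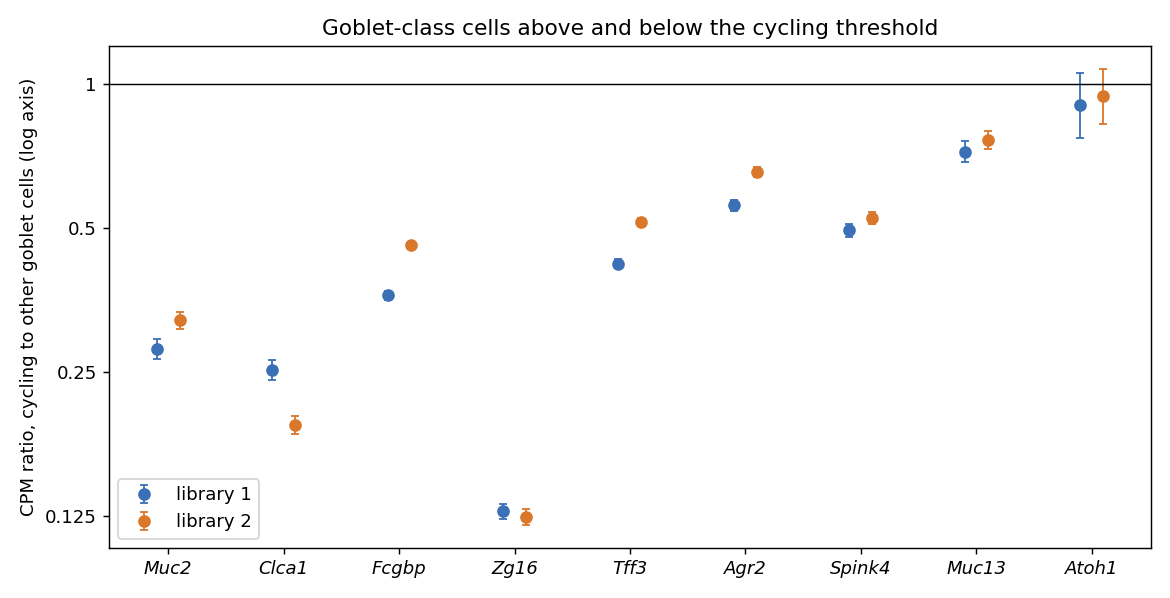
Ratio of CPM in cycling goblet-class cells to that in other goblet-class cells (log axis), for the 8 members and Atoh1, library 1 in blue and library 2 in orange, with exact conditional 95% intervals. Zg16 is lowest at 0.128 and 0.125 and Muc13 is the highest member at 0.723 and 0.764.

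Goblet cells also varied widely among themselves. The members took from 0.900% to 42.3% of a goblet cell's UMIs in library 1, with a median of 5.87%, and from 0.996% to 40.3% in library 2, with a median of 7.33%. All 8 were detected in 79.4% and 87.1% of goblet cells, or 60.5% and 67.0% after thinning to 2000 UMIs. Zg16 had the widest spread relative to its median: its median was 36.4 and 31.4 UMIs per 10000, and its 90th percentile was 522 and 453. Muc13 had the narrowest, with a median of 19.5 and 23.0 and a 90th percentile of 32.6 and 37.3. In thinned cells (309 and 451), the Spearman correlation over cells was 0.80 and 0.78 for Muc2 with Fcgbp, 0.75 and 0.75 for Clca1 with Zg16 and 0.74 and 0.74 for Muc2 with Tff3. Agr2 went least with Muc13, at 0.18 and 0.085. These cells share their library, and the correlations are descriptions.

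Between the libraries, no member was apart in goblet cells. A gene was called apart where its CPM ratio was at least 1.5 in either direction, the 95% interval excluded 1 and it had at least 100 UMIs over both libraries, and 3.84% of the 8386 genes measured in goblet cells were called (2.36% higher and 1.48% lower in library 2). Ratios of library 2 to library 1 were above 1 for 7 of 8 members, from 1.13 for Spink4 (interval 1.11 to 1.15) to 1.48 for Clca1 (1.45 to 1.503), and 0.955 for Zg16 (0.944 to 0.966). Muc2 was at 1.34 (1.31 to 1.37), Fcgbp at 1.27, Muc13 at 1.25, Tff3 at 1.16 and Agr2 at 1.13. Their median log2 ratio was 0.26, against 0.017 over all genes measured. In goblet cells outside the cycling rule, Clca1 was at 1.36, Muc2 at 1.20, Fcgbp at 1.14 and Zg16 at 0.848, and with the class thresholds doubled the median ratio of the 8 was 1.03. Within the cycling goblet cells, Fcgbp was at 1.46, Muc2 at 1.38, Clca1 at 1.04 and Zg16 at 0.825. The share of cycling cells among goblet cells was the 26.3% and 19.2% given above.

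More members were apart outside the goblet class, and lymphocytes, used here as the background, had the most. Of 7 members measured in lymphocytes, 6 were apart and higher in library 2, where 6.64% of 3568 genes were higher and 5.55% lower. Muc2 was at 2.99 there (1.95 to 4.72), Agr2 at 2.80, Fcgbp at 2.05, Spink4 at 1.87, Tff3 at 1.84 and Zg16 at 1.78, while Muc13 was at 1.18 (0.956 to 1.46). Tuft cells had 5 of 7 members apart and higher (4.74% of 1413 genes higher, 1.91% lower) and enteroendocrine cells 4 of 7 (9.37% of 3511 higher, 7.55% lower), with Muc13 at 0.969 and 1.01 in those classes. Tuft counts were small in library 1, with 13 Agr2 and 18 Muc2 UMIs in 25 cells. In Paneth cells Muc2 (1.80), Clca1 (1.63) and Fcgbp (1.93) were apart and higher, 3 of 8 members, against 3.3% of 3789 genes higher and 12.1% lower. The 2 library 1 Paneth cells richest in each held 46.6% of the Clca1 and 44.7% of the Zg16 UMIs of the class. Without the richest 1% of cells, Clca1 was at 2.90 and Zg16 at 2.02, against 1.15 with them, and 4 of 8 members were apart and higher. That removal was made for the members only, so this count has no share over all genes beside it. Spink4, at 40.5 and 28.5 times its lymphocyte CPM in Paneth cells, was at 1.31 in this class. The other members stood above their lymphocyte CPM there too, from Muc2 at 12.1 and 7.30 times to Fcgbp at 2.23 and 2.11 times.

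Fewer members were apart in the larger classes. In stem cells only Clca1 was, at 1.97 (33.3 and 65.7 CPM), where 2.07% of 9799 genes were higher and 0.867% lower. Enterocytes had Muc2 at 2.04 and Spink4 at 1.60 (3.05% of 9169 genes higher, 1.46% lower), cells of no class had Muc2 at 1.503 (2.45% of 8815 higher) and Zg16 at 0.603 (1.62% lower), and cycling cells had Agr2 at 0.533 (1.45% of 9387 lower, 2.12% higher). Both lower calls rested on few cells of library 1. Without the 1% of cells richest in the member, Zg16 in cells of no class was at 1.12 and Agr2 in cycling cells at 0.803. Agr2 in cycling cells was at 1.31 with the class thresholds doubled. Zg16 in enterocytes, at 0.671 with 384 and 258 CPM, was at 1.49 without its richest cells, and the median enterocyte had 1.09 and 2.099 Zg16 UMIs per 10000. Without the richest 1% of cells, the members apart and higher rose in number from 2 to 6 of 8 in enterocytes, from 1 to 3 in stem cells and from 0 to 2 in cycling cells. Those added were Clca1 (2.01), Fcgbp (2.101), Tff3 (1.75) and Agr2 (1.89) in enterocytes, Muc2 (1.62) and Zg16 (1.60) in stem cells, and Muc2 (1.51) and Clca1 (1.72) in cycling cells. This removal was made for the members only, so no share over all genes can be set beside these counts. The counts are therefore not read as a result about the members.

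The lymphocyte level itself was higher in library 2, and subtracting it from each class of the same library moved 31 of 62 member ratios by over 1.5 times and carried 16 to the other side of 1. In enterocytes Muc2 became 1.04 and Spink4 1.03, so neither passed the size rule, while Fcgbp went from 1.49 to 0.298 and Tff3 from 1.20 to 0.352. In stem cells Fcgbp went from 1.17 to 0.181, Muc2 from 1.48 to 0.270 and Zg16 from 1.27 to 0.444. Stem Clca1 went from 1.97 to 3.56. Before subtraction stem Clca1 was at 1.13 (0.743 to 1.80) and 1.26 (0.941 to 1.74) times its lymphocyte CPM. In library 2 stem Fcgbp was at 1.08, stem Muc2 at 1.11, stem Zg16 at 1.15 and enterocyte Fcgbp at 1.07 times theirs. All of these intervals included 1, so the subtracted ratios divide small remainders and are not firm. Muc2 in cells of no class became 0.850 and in enteroendocrine cells 1.47. No goblet ratio crossed 1 under any alternative. Muc13 ratios lay between 0.969 and 1.30 in all 9 classes, with none apart.

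**Figure D5:**
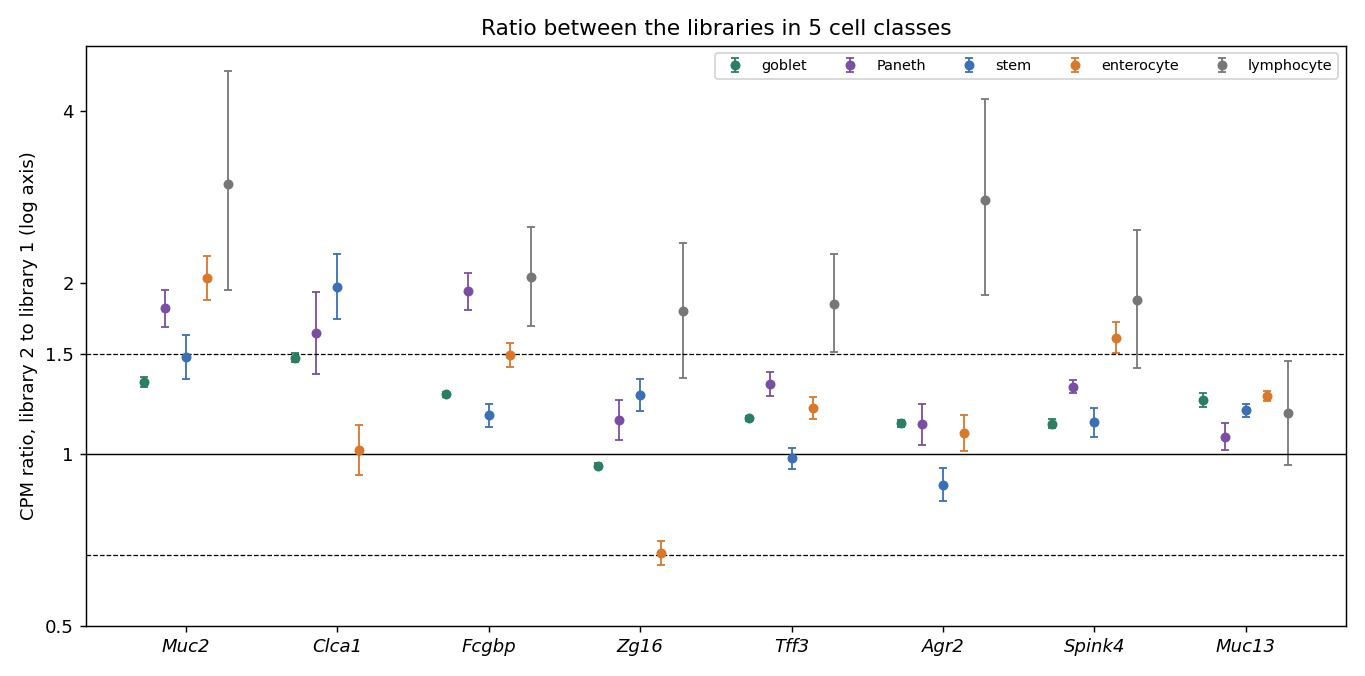
CPM ratio of library 2 to library 1 (log axis) for members with at least 100 UMIs in 5 classes, with exact conditional 95% intervals. The solid line marks 1 and the dashed lines the size rule of 1.5 in either direction. All goblet points lie between 0.955 and 1.48, while the lymphocyte points for Muc2 and Agr2 reach 2.99 and 2.80.

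Genes of the machinery behind mucus were often high in goblet cells. Of 24 measured genes of mucin glycosylation, 17 were at least 2-fold higher in goblet cells than over other classes in both libraries, and of 26 genes of endoplasmic reticulum folding and export, 20 were, against 5.57% of all genes. Galnt7 (436 and 551 CPM in goblet cells) starts O-glycan chains, Gcnt3 (348 and 420 CPM) branches them, and C1galt1 (330 and 381 CPM) extends them. Among folding genes, the chaperone Hspa5 was at 2355 and 2689 CPM, the lectin chaperone Calr at 1945 and 2182 CPM and Hsp90b1 at 1924 and 2131 CPM. Of 21 granule secretion genes, 7 met the 2-fold rule. Guca2a, the guanylin precursor, was at 2185 and 2655 CPM, the inflammasome adaptor Pycard at 498 and 414 CPM, below its enterocyte level (843 and 899 CPM), and the granule GTPase Rab3d at 278 and 318 CPM. Between libraries, 0 of 21 glycosylation, 0 of 25 folding and 0 of 20 secretion genes measured in goblet cells were apart. Over all genes measured there, 3.84% were, and 0 in lists this short is close to that share. Median log2 ratios of the lists were 0.25, 0.17 and 0.17, against 0.017 over all genes measured. With 1 library a group, no count test could be run.

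Of 9 measured genes of proteins bound to or modifying mucus, 2 were apart and higher in library 2, against 2.36% of all genes measured in goblet cells. Retnlb, an antibacterial resistin-like protein of goblet cells, was at 17.2 and 52.8 CPM, a ratio of 3.07. Mep1b, a meprin metalloprotease subunit, was at 32.7 and 55.8 CPM, a ratio of 1.71, near its lymphocyte level (24.4 and 32.5 CPM). Mep1b was also higher in library 2 in enterocytes, its main class (501 and 725 CPM), stem cells (18.7 and 42.2 CPM) and Paneth cells (26.3 and 82.2 CPM). The abundant Pigr, the receptor that carries IgA across the epithelium, was at 1.23, the galectin Lgals4 at 1.12 and Lypd8 at 1.39. Genes related to the members had varied profiles. Muc3a, a membrane mucin gene and the most abundant listed mucin relative in goblet cells, was at 207 and 258 CPM there, 6.29-fold and 7.53-fold above the other classes together. Muc4, also a membrane mucin, was at 55.2 and 61.4 CPM in goblet cells and higher in stem cells (154 and 173 CPM). Muc3, another membrane mucin, was at 33.4 and 20.3 CPM in goblet cells (ratio 0.608, apart and lower). In enterocytes it was at 189 and 115 CPM, so it was lower in library 2 there as well. Muc5ac, Muc5b, Muc16 and Tff1 had no UMI in any kept cell, and Tff2, with 4 and 16 UMIs in goblet cells, was near that floor. Clca3b, of the Clca1 family, was higher in stem cells (3700 CPM in library 1) than in goblet cells (789 CPM), and Spink1, of the Spink4 family, was higher in enterocytes (585 CPM) than in goblet cells (50.2 CPM). Clca4b was at 58.3 and 60.3 CPM in goblet cells, below its stem level (302 and 315 CPM), and Spink10 was at 3.29 and 6.26 CPM. Of the Agr2 relatives, Txndc12 was at 83.6 and 87.6 CPM in goblet cells and Agr3 at 11.4 and 7.30 CPM. Clca3a1 (14.2 and 23.1 CPM, ratio 1.63) and Spink1 (50.2 and 82.6 CPM, ratio 1.65) were apart and higher in goblet cells of library 2. Spink1 was at 24.4 and 46.5 CPM in lymphocytes and 585 and 773 CPM in enterocytes, so its higher level in library 2 was not confined to goblet cells.

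Genes with the nearest profiles were sought by the Pearson correlation of log2(CPM + 10) over 18 points, the 9 classes in both libraries, among 12030 genes. The points share their libraries and the goblet class dominates them, so these are descriptions. Muc2 was nearest to Guca2a (0.99), then to Ccl9, a goblet marker of the class rule, and Smim5. Clca1 was nearest to Zg16 (0.98), Fcgbp and Spats2l, and Fcgbp to Capn9, also a marker of the rule, Scnn1a and Spats2l. Zg16 was nearest to Clca1, Mfsd7a and Agr2, Tff3 to Agr2 (0.97), Scnn1a and Gcnt3, and Agr2 to Tff3, Zg16 and Tfcp2l1. Spink4 was nearest to the chemokine gene Ccl6 (0.99), Ramp1 and 1810028F09Rik. Muc13 had looser neighbours, Degs2 (0.94), the membrane protease Tmprss2 (0.94) and Ltbr (0.94).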

How the data were processed

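The authors deposited raw UMI counts per gene and barcode as 1 matrix of both libraries, with whole numbers and no normalization per the file header. The submitters' processing notes name Cell Ranger 2.1.1 and mm10. The sources used here do not give the rule for calling cells. Per the labels a 3' droplet kit was used, but the barcodes are 27 bases long, so the capture chemistry is not settled.

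From these counts, cells with 500 or more genes and no more than 25% mitochondrial UMIs were kept. A cell joined a class when its marker UMIs per 10000 UMIs reached a threshold (goblet, enteroendocrine and tuft 20, enterocyte and lymphocyte 50, Paneth 500) with at least 3 markers detected. Stem and cycling classes (20 each) were drawn, stem first, from cells of none of these 6 classes, and cells that met several of them (54 and 83) were left out of the classes. The thresholds were set after looking at the marker distributions. The leading genes of the goblet class by fold were Clca1, Rep15, Fer1l6, Mptx1 and Id4, and 5 of the markers that set the class were among the top 10. UMIs were summed per class and library and given as CPM. Shares of cells with a UMI were read after thinning each cell to 2000 UMIs, which left out shallower cells (41 and 53 goblet, 72 and 39 lymphocyte). Other cell filters and thresholds, thinning, removal of the deepest cells and subtraction of the lymphocyte level were tried as alternatives. Python 3.11.15, numpy 2.4.6 and scipy 1.17.1 were used. The size rule was checked on simulated counts drawn with counting error only, so that check does not cover spread between cells or animals.

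All 8 members are named. For each, the 3 genes of nearest profile are named, and of each pathway list the genes apart in the goblet class and the 3 of highest goblet level. The members and the gene lists were chosen with earlier results of these data known. Of the listed genes Muc17 and Clca4c-ps were not matched and are not analysed here. Atoh1, Epcam and the marker genes at 0 were added to the named genes after their values were seen.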

Additional observations from a re-analysis of the deposited data

Results flagged for a closer look

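Zg16 and Agr2 had library ratios on opposite sides of 1 in different classes, a difference between classes that was not tested. Both low values turned under another setting. Zg16 was lower in library 2 in cells of no class, at 0.603 (1.12 without the 1% of cells richest in it), and higher in enteroendocrine cells, at 1.64, tuft cells, at 2.76, and lymphocytes, at 1.78. Agr2 was lower in library 2 in cycling cells, at 0.533 (0.803 without its richest 1% of cells and 1.31 with the class thresholds doubled), and higher in tuft cells, at 2.96, and lymphocytes, at 2.80.

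Cells that met both the goblet and the Paneth rule, 30 in library 1 and 62 in library 2, were left out of all classes in the main setting. They counted in the totals of member UMIs in kept cells, and joined a class only where cells of several classes were kept in the highest. They carried Spink4 at 18356 and 18707 CPM, above its level in either class, against 97.4 and 182 CPM in lymphocytes. Their median depths, 4962.5 and 5275 UMIs, lay below those of the goblet class (10347 and 11223). Tff3 there was at 15005 and 16528 CPM and Muc2 at 6109 and 7173 CPM, above the goblet class in both libraries. The other 5 members lay below the goblet class in both: Clca1 at 2744 and 3441 CPM (goblet 4333 and 6396), Agr2 at 4209 and 4879 CPM (8115 and 9192), Zg16 at 9739 and 8018 CPM (13482 and 12874), Fcgbp at 11144 and 13410 CPM (15022 and 19138) and Muc13 at 1627 and 1943 CPM (1878 and 2342). What these cells are was not tested.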

How the results depend on the processing

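No paired analysis was possible because each group is 1 library and no test was run. The members' share of goblet UMIs (6.61% and 7.74%) was 9.16% and 9.18% with class thresholds doubled, 6.74% and 7.85% with cells of several classes kept in the highest, 6.97% and 8.01% without the 5% of cells with most UMIs, 8.19% and 9.05% after thinning and 6.52% and 7.58% with the lymphocyte level subtracted. The lymphocyte level of the members (886 and 1614 CPM) was 11898 and 14406 CPM in barcodes under 500 genes, and 686 and 1373 CPM in lymphocytes with no Epcam UMI, a setting added after seeing the data. The median member ratio in goblet cells (1.20) was 1.03 with thresholds doubled. Genes apart in goblet cells, 198 higher and 124 lower, were 70 and 30 after thinning, 58 and 6 at a ratio of at least 2, and 318 and 229 at a minimum of 20 UMIs. The lower count was 55 with thresholds doubled and 70 without cycling goblet cells (added later). Of the 24 member ratios that were apart, 3 turned in direction: Muc2 in cells of no class was 0.850 with the lymphocyte level subtracted, Agr2 in cycling cells 1.31 with thresholds doubled, and Zg16 in cells of no class 1.12 without the 1% of cells richest in it (added later). Of all member ratios, apart or not, 16 of 62 crossed 1 with the lymphocyte level subtracted, and of 72, 12 did without the richest 1% of cells, 9 with thresholds doubled and 2 to 6 under the other settings. Subtraction moved 31 of 62 ratios by over 1.5 times, thresholds doubled and removal of the richest 1% moved 12 of 72 each, and the other settings 1 to 5. Of the ratios that were apart, 9 stayed so after thinning, 18 with thresholds doubled and 21 to 24 under the other settings that gave a call. In goblet cells no alternative brought a member's ratio outside 0.806 to 1.497. Thinning leaves fewer genes with 100 UMIs, and the cause of the other shifts was not tested. Depth limits the tuft and lymphocyte values most, since single members there rest on few UMIs in library 1 (Clca1 on 2 in tuft cells, Muc2 on 28 in lymphocytes), and no value covers differences between animals.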

Other observations

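Barcodes with under 500 genes (837 in library 1 and 693 in library 2) carried the members at 11898 and 14406 CPM, between the goblet class and every other epithelial class. Relative to Paneth marker UMIs and to lymphocytes, Agr2 was at 2.79 and 1.62 in these barcodes, Zg16 at 3.44 and 1.73 and Muc13 at 0.844 and 0.889. Muc13 was thus the only member of the 8 below 1 there in both libraries, but its intervals (0.707 to 1.01 and 0.762 to 1.04) included 1. Paneth markers themselves were at 19243 and 29153 CPM in these barcodes, which lowers this measure there.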
